A study of Mus musculus with 2 samples.

Results

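The Schwann cell genes described here are the 8 genes Mbp, Pmp22, Erbb3, Erbb2, Fabp7, Egr2, Nrg1 and Cdh19, chosen by name as genes of Schwann cell precursors and of peripheral myelin. All 8 were found among the 43346 mouse genes of the deposited tables. Total RNA-seq measured them in embryonic facial prominence, from which the face develops, taken from healthy mice of strain B6NCrl at 15.5 days of gestation. Tissue of 78 embryos made up biological replicate 1 and tissue of 62 embryos biological replicate 2, each with both sexes pooled, and the labels name no treatment and no second group. No comparison between conditions was therefore possible, and with 1 library on each side a difference between the replicates carries no test. Nothing in the tables separates the cells of this tissue, so fewer cells of a type and less RNA per cell cannot be told apart.

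Schwann cells are the glia of peripheral nerves, and in the head they arise from neural crest cells that travel along growing axons as Schwann cell precursors. Axons carry the growth factor neuregulin 1, which glial cells read through a receptor made of ErbB3, which binds the ligand, and ErbB2, which supplies the kinase. Myelin is built only later, when the zinc finger factor Egr2, also called Krox20, turns on the genes of the myelin sheath together with Sox10.

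The libraries held 37128010 and 38543623 expected counts, the estimated number of reads per gene, of which 114 to 8056 fell on each of the 8 genes in replicate 1 and 112 to 8138 in replicate 2. Levels are given in TPM, a gene's share of all transcripts after correction for transcript length, as the value in each library and as the mean ± SD (n = 2). A gene was called detected at 1 TPM or more in both libraries. Added spike-in RNA took 6.42% of the TPM in replicate 1 and 10.1% in replicate 2, which lowers the TPM of every gene by a different share in each library.

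All 8 genes were detected, against 65.4% of the protein coding genes in the table. The 8 genes and the lists used below were chosen with earlier results of these data known. Neither this comparison nor the same comparison for a list can therefore be read as a trait of the set. In order of mean level they were Pmp22, Erbb2, Fabp7, Erbb3, Mbp, Egr2, Nrg1 and Cdh19, and their levels spanned from 194 TPM down to 1.21 TPM. Their median was 14.5 TPM, and 4 of the 8 lay above the median of 18.1 TPM of detected coding genes. Adjacent genes of this order did not overlap between replicates, except for Fabp7 with Erbb3 and Egr2 with Nrg1. Fabp7 stood below Erbb3 in replicate 1 (0.900 times its TPM) and above it in replicate 2 (1.82 times). Egr2 stood above Nrg1 in replicate 1 (1.15 times) and below it in replicate 2 (0.925 times).

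**Figure D1:**
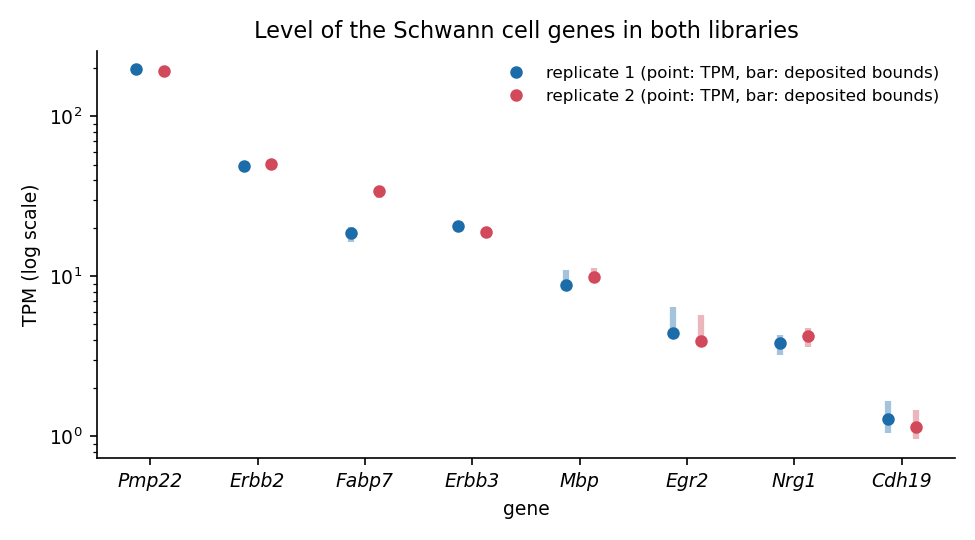
Level of each of the 8 genes in TPM on a log scale, with 1 point per library and a bar for the credibility bounds deposited by the authors, whose level the tables do not print. Pmp22 is highest at 197 and 191 TPM, Cdh19 lowest at 1.29 and 1.14 TPM, and Fabp7 shows the widest gap between the libraries.

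Among the myelin genes, Pmp22, which encodes a membrane protein of compact myelin that many non-neural cells also make, was the most abundant by a wide margin. It stood at 196.68 TPM in replicate 1 and 191.39 TPM in replicate 2 (194 ± 3.74 TPM), above 96.7% of coding genes. Both libraries gave nearly the same level.

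Pmp22 has alternative first exons, and nearly all of its transcripts were assigned to a single one. The gene lies on chromosome 11 from 63128982 to 63159547 on the plus strand (GRCm38). Pmp22-201, whose 5′ end lies 2.53 kb downstream of the first, at 63131512, took 94.55% and 95.2% of the gene's transcripts. Pmp22-204, which begins at the most upstream 5′ end, at 63128982, took 2.17% in replicate 1 and 0.79% in replicate 2. The upstream first exon is known as the one preferred by myelinating Schwann cells, and the next one as active in many tissues. The remaining 3 transcripts, with 5′ ends from 63132569 to 63133068, took 3.64 ± 0.516% together.

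The upstream Pmp22 transcript was the less even of these between the libraries. It received 181 counts in replicate 1 and 66.5 in replicate 2, a log2 ratio of replicate 2 over replicate 1 of -1.47 (-1.92 to -1.08, 95% exact binomial interval on the 2 counts, which covers counting error only). Its deposited credibility bounds, 2.30 to 6.97 TPM in replicate 1 and 0.431 to 2.99 TPM in replicate 2, overlapped. Past 2-fold between the libraries were 2 of the 17 transcripts of the 8 genes that had 10 or more counts in both, Pmp22-204 and Mbp-201, both lower in replicate 2. Of all 41403 transcripts with such counts, 7.65% were past 2-fold in either direction and 4.07% were past it and lower in replicate 2.

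The bases before these alternative starts show how the regions differ. Each stretch is the 250 bases upstream of a RefSeq transcript start (GRCm38.p6), chr11:63128732-63128981 and chr11:63131207-63131456, both on the plus strand, with matches to the searched motifs in capitals. The second RefSeq start, 63131457, lies close to the 5′ end of Pmp22-201.
Upstream start of Pmp22: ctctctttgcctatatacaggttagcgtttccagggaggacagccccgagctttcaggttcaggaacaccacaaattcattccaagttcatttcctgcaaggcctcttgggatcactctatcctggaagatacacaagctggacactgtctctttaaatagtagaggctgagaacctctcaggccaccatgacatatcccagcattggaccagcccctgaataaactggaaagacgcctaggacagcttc
Main start of Pmp22: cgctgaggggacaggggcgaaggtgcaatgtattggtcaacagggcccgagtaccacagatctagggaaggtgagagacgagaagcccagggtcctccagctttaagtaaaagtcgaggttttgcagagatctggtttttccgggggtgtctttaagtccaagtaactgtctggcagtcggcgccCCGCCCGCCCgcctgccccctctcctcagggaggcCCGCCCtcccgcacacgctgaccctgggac
The stretch before the main start held 3 matches to GGGCGG, the letters bound by Sp1, and the stretch before the upstream start held 0. Its base composition was richer in G and C, 61.2% against 48.8%, with 14 CG pairs against 3. Over all 32851 such stretches in the RefSeq table, GGGCGG on either strand occurred in 32.7%, and the median stretch was 52.4% G and C with 6 CG pairs. Neither stretch held TATAAA (12.4% of all stretches), GTGGGC, a core of Egr sites (18.6%), or ACAAAG, a core of Sox sites (16.5%), on either strand. GTGGGC and GGGCGG can share letters. Further RefSeq starts of Pmp22 lie at 63132569 and 63132803, near transcripts that took 0.38% and 1.12% of the gene. The stretches before them held 0 and 3 matches to GGGCGG, were 64.8% and 73.6% G and C, and had 14 and 27 CG pairs. These traits are therefore not particular to the main start. A match describes letters only, not binding.

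Mbp encodes myelin basic protein, the cytoplasmic glue of the myelin membrane, and an overlapping, longer unit named golli from the same locus. It stood at 8.78 TPM in replicate 1 and 9.85 TPM in replicate 2 (9.31 ± 0.757 TPM), from 715 and 827 counts. The gene spans 110.0 kb of chromosome 18, from 82475146 to 82585637 on the plus strand (GRCm38), and the table held 16 of its transcripts.

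Most Mbp transcripts were assigned to the upstream, golli starts rather than to the starts of classic myelin basic protein 79.3 kb downstream. The 4 transcripts of the upstream starts took 74.0% in replicate 1 and 66.1% in replicate 2 (70.0 ± 5.63%), and the 11 of the downstream starts took 24.4% and 31.9% (28.1 ± 5.35%). In TPM, the upstream starts stood at 6.5 and 6.51, and the downstream starts at 2.13 and 3.14. The upstream group was even between the libraries, while the downstream group had a log2 ratio of 0.52 (0.16 to 0.90, counting error only).

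This split rested on 1 transcript. Mbp-205 took 47.85% and 50.99% of the gene, with credibility bounds of 3.79 to 4.57 TPM and 4.52 to 5.32 TPM. In GENCODE M21 its last exon is 4384 bases long, contains the starts of all 11 downstream transcripts, and has 90.2% of its bases in no exon of any other Mbp transcript. The counted models are not all those of M21. Mbp-205 has 4797 bases in both, but Mbp-203 was counted with 2075 bases against 354 in M21, and Mbp-202 with 2186 against 531. The starts and shared bases of the counted models may therefore differ from those given here. With Mbp-205 left out, an alternative chosen after seeing the data, the upstream starts took 50.3% of the remaining TPM in replicate 1 and 30.8% in replicate 2. The downstream starts then took 46.6% and 65.0%, so that the order of the 2 groups differed between the libraries.

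Single transcripts of Mbp beyond Mbp-205 were poorly resolved. Mbp-201, a golli transcript of 7 exons, took 18.54% in replicate 1 and 5.14% in replicate 2. Its bounds reached from 0.0357 to 1.72 TPM in replicate 1 and from 7.02e-06 to 0.937 TPM in replicate 2. Among the classic transcripts Mbp-203 took 15.22% and 7.13%, while Mbp-211 took 0 in replicate 1 and 9.51% in replicate 2 and Mbp-215 0 and 5.11%. Mbp-207 took 4.48% and 5.27%, and the short golli transcript Mbp-208 took 7.63% and 6.98%. For each of these 6 transcripts the bounds of the libraries overlapped, so no shift between them could be read.

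**Figure D2:**
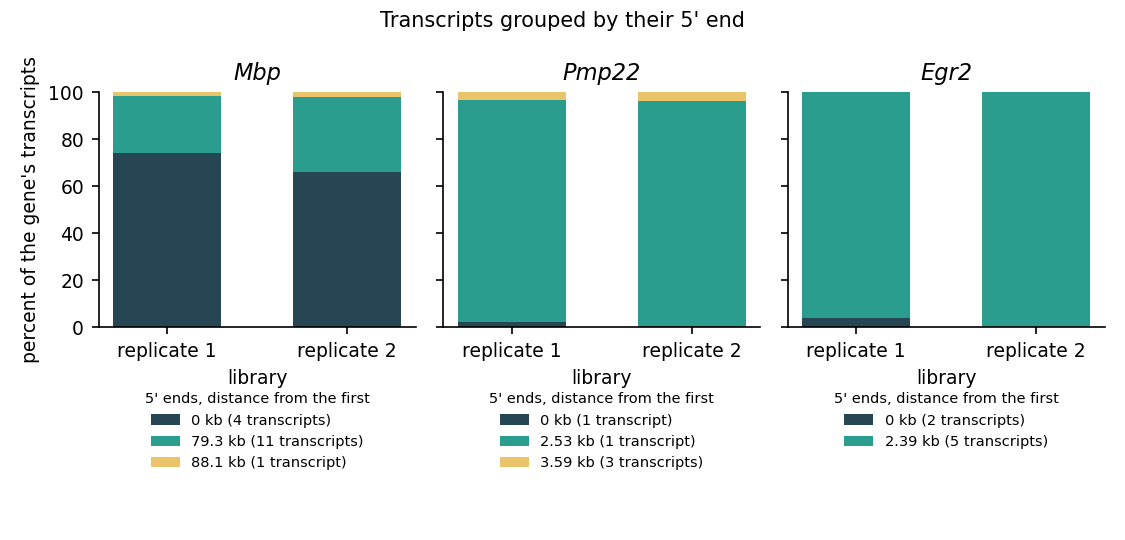
Percent of the transcripts of Mbp, Pmp22 and Egr2 in each library, grouped by the position of the annotated 5′ end and stacked, with the distance from the most upstream 5′ end in kb. The upstream group takes 74.0% and 66.1% of Mbp, the group at 2.53 kb takes 94.5% and 95.2% of Pmp22, and the group at 2.39 kb takes 96.0% and 100% of Egr2.

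Of the 16 other genes listed for myelin, 6 were detected, against 65.4% of all coding genes, and the median of the 16 was 0.840 TPM. The most abundant were Mal at 55.3 ± 2.07 TPM and Cnp at 26.2 ± 1.42 TPM, which epithelia and other cells also express. Cadm4, an adhesion gene of the internode, stood at 6.15 ± 0.212 TPM, the periaxin gene Prx at 4.71 ± 0.940 TPM, Ncmap at 4.18 ± 1.98 TPM and the periaxin partner gene Drp2 at 3.12 ± 0.0849 TPM. The other 10 genes of the list did not reach 1 TPM in both libraries. Among these, the fatty acid binding protein gene of myelin Pmp2 had 1 count in replicate 1 and 0 in replicate 2, the gap junction gene Gjb1 stood at 0.230 ± 0.0566 TPM and the tight junction gene Cldn19 at 0.16 and 0.04 TPM. The glycoprotein gene Mag, at 0.800 and 1.09 TPM, reached 1 TPM in replicate 2 alone. Mog and Mobp of this list, also not detected, are counted again below as oligodendrocyte markers, and Cnp again among the precursor genes.

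Of the 6 listed markers of oligodendrocytes, the myelin cells of the brain, 3 were detected and 3 were not, against 65.4% of all coding genes detected. Opalin had 0 counts in both libraries, Mog stood at 0.0800 and 0.0700 TPM, and Mobp at 0.450 and 0.310 TPM. Those detected were Cspg4 at 15.6 ± 0.841 TPM, above the mean level of Mbp, Olig1 at 4.04 ± 1.45 TPM and Olig2 at 1.86 ± 1.04 TPM, and Cspg4 is also known from pericytes. For other cell types in which some of the 8 genes are known, detection is given beside the same 65.4%. The detected markers were 8 of 8 for epithelium, 8 of 8 for fibroblasts and mesenchyme, 8 of 8 for skeletal muscle, 7 of 7 for melanocytes and 2 of 6 for lymphocytes. The highest were Col1a1 at 3345 ± 13.2 TPM and Col3a1 at 2425 ± 264 TPM for fibroblasts, Acta1 at 917 ± 164 TPM and Myl1 at 546 ± 115 TPM for muscle, and Pmel at 22.4 ± 1.41 TPM and Dct at 18.7 ± 2.31 TPM for melanocytes. For lymphocytes they were Lck at 4.88 ± 0.693 TPM and Ptprc at 2.87 ± 0.247 TPM. The part of these cell types in the levels of Pmp22, Erbb2, Erbb3, Fabp7 and Mbp was not tested.

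The receptor genes Erbb2 and Erbb3 were both detected, Erbb2 at the higher level in each library. Erbb2 stood at 48.69 and 50.3 TPM (49.5 ± 1.14 TPM), and Erbb3 at 20.69 and 18.84 TPM (19.8 ± 1.31 TPM). Erbb2, on chromosome 11 from 98412470 to 98437716, was 2.35 and 2.67 times Erbb3, on chromosome 10 from 128567523 to 128589652 (GRCm38). The other receptors of the family were lower. Egfr, the receptor of epidermal growth factor, stood at 17.81 and 12.45 TPM, and Erbb4, another neuregulin receptor, at 0.960 and 0.600 TPM.

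Erbb2 was carried almost wholly by its full coding transcript. Erbb2-201 took 97.04% and 97.38%, and Erbb2-202, a near full-length transcript annotated as noncoding, took 2.96% and 2.62%. Erbb3 had 1 transcript in the table, a coding one, so its share was fixed in advance. Erbb3 reached 2.29 and 1.98 times the TPM of Sox10, the neural crest and glial transcription factor gene, which stood at 9.28 ± 0.318 TPM. Epithelial markers, which stood as high as 946 ± 83.6 TPM for Krt14 and 931 ± 56.6 TPM for Krt15, are relevant beside both receptors because epithelia also use ErbB receptors, and the share of either receptor from epithelium was not tested.

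Nrg1, the neuregulin ligand gene, stood at 3.83 and 4.25 TPM (4.04 ± 0.297 TPM) from 189 and 219 counts, near the middle of coding genes at the percentile of 45.0. This value counts 1 annotated transcript, whose bases in GENCODE M21 are all shared with other models of the gene. The total of the gene may be higher, and comparisons with other genes hold for this value alone, not for a single form of Nrg1. On this value it was the highest of the neuregulin genes. Nrg4 stood at 1.39 and 1.21 TPM, Nrg3 at 0.160 ± 0.0566 TPM and Nrg2 at 0.140 TPM in both libraries. Nrg1 was 2.76 and 3.51 times Nrg4 and 27.4 and 30.4 times Nrg2. Of the 10 other ligand genes of the family 4 were detected, against 65.4% of all coding genes. Tgfa led at 7.58 ± 2.31 TPM, followed by Hbegf at 6.91 ± 1.46 TPM. Both are ligands of Egfr, and both stood above the value of Nrg1 in each library. The third was Btc, another ligand of Egfr, at 1.52 ± 0.120 TPM.

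The level of Nrg1 rests on a single gene model. The table held 1 transcript, Nrg1-201, with a length of 2103 bases, while GENCODE M21 lists 18 for the gene, which spans chromosome 8 from 31814551 to 32884029 on the minus strand (GRCm38). The other 17 were not in the table, and 76.3% of their exon bases lie outside Nrg1-201. In M21, Nrg1-201 begins at 31918280, in a group of 6 annotated 5′ ends between 31917650 and 31918391. This is the position of type III neuregulin, which stays bound to the axon membrane. Another 8 models begin between 32009109 and 32009491 and 2 between 32883862 and 32884029; none of these was in the table. All 2452 bases of Nrg1-201 in M21 are shared with at least 1 of the other models, so the value cannot be read as the level of type III neuregulin.

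In M21, Nrg1-201 carries the beta form of the EGF-like domain, the part that binds the receptor. The counted model has 2103 bases against 2452 in M21, so its exons may differ from those of M21. The exons below are shown because they decide which form a transcript encodes. They are read from GENCODE M21 transcripts and lie on the minus strand of GRCm38 at chr8:31837670-31837728, chr8:31831205-31831228 and chr8:31838261-31838328.
Beta exon, in Nrg1-201: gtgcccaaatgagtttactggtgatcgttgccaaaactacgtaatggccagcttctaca
Following exon, in Nrg1-201: agcatcttgggattgaatttatgg
Alpha exon, absent from Nrg1-201: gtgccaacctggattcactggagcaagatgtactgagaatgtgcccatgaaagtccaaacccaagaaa
The beta exon of 59 bases is in 9 of the 18 M21 transcripts, the following exon of 24 bases in 5, and the alpha exon of 68 bases in 4. No transcript that holds the alpha exon in M21 was in the table, so the alpha form has no value of its own here.

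Genes that process neuregulin and genes that act after the receptor were all detected, against 65.4% of all coding genes. The 7 processing genes had a median of 28.8 TPM and were led by Nrdc (named Nrd1 in GENCODE M21) at 58.9 ± 0.764 TPM, the protease gene Adam10 at 48.7 ± 1.34 TPM and Bace1, whose protease cuts type III neuregulin, at 36.2 ± 0.651 TPM. The 10 downstream and feedback genes had a median of 19.7 TPM. They were led by the ubiquitin ligase gene Nedd4 at 432 ± 4.21 TPM and the adaptor genes Shc1 at 88.4 ± 0.283 TPM and Grb2 at 81.1 ± 11.9 TPM. Rnf41, also called Nrdp1, a ubiquitin ligase that lowers ErbB3, stood at 20.5 ± 0.205 TPM. None of these 17 genes was past 2-fold between the libraries, against 3.18% of all genes tested.

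**Figure D3:**
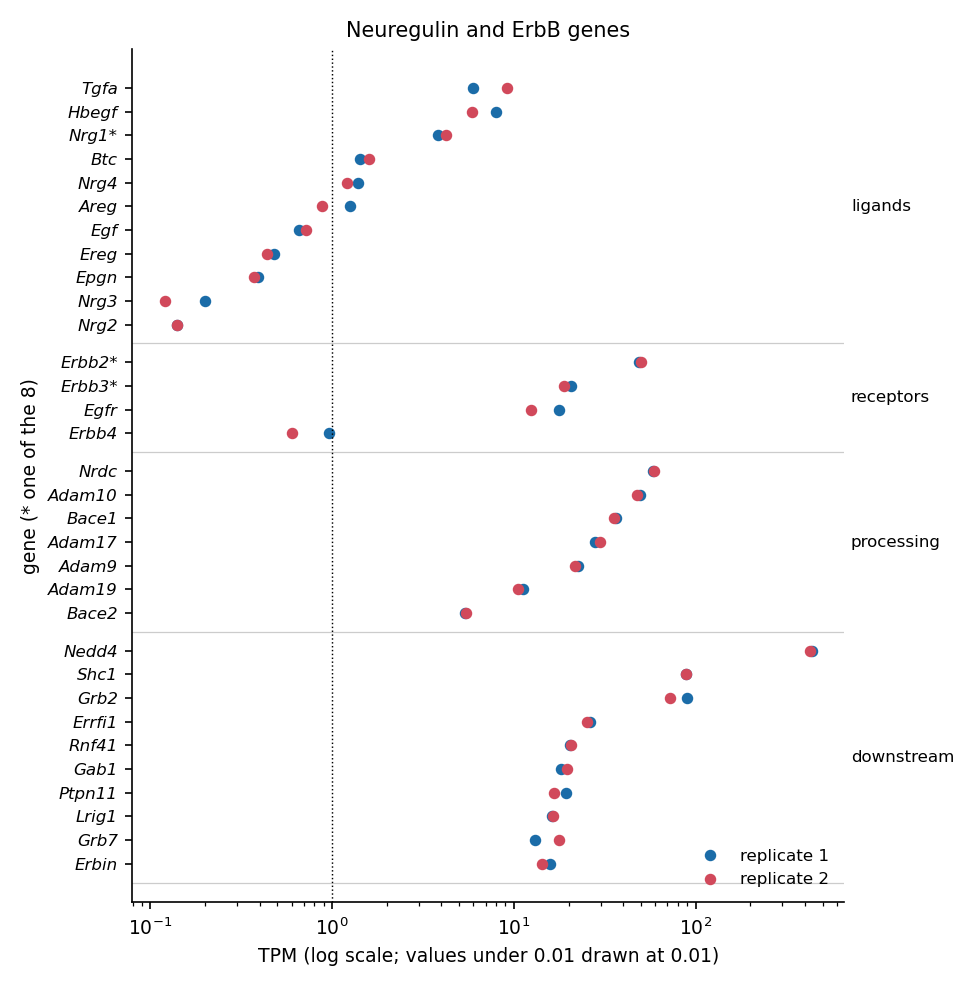
Level in TPM on a log scale of the ligands, receptors, processing genes and downstream genes of neuregulin and ErbB signalling, with 1 point per library and a dotted line at 1 TPM. Erbb2 and Erbb3 lead the receptors at 49.5 and 19.8 TPM, while Nrg1, counted on 1 annotated transcript, stands at 4.04 TPM.

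Of the precursor genes, Fabp7, the brain lipid binding protein gene of glial precursors, radial glia and olfactory glia, stood out between the libraries. It stood at 18.63 TPM in replicate 1 and 34.34 TPM in replicate 2 (26.5 ± 11.1 TPM), from 324 and 623 counts. Replicate 2 was the higher, and the credibility bounds of 16.3 to 20.3 TPM and 31.0 to 36.3 TPM did not overlap. After TMM scaling the log2 ratio of replicate 2 over replicate 1 was 0.88 (0.69 to 1.08), a 1.84-fold difference that stayed under the threshold of 2-fold. Among the 4266 genes with between 0.5 and 2 times its mean count, 2.53% had a ratio at least as far from 0 in either direction. Fabp7-201 took 98.95% and 98.84% of the transcripts, so the same transcript carried both values.

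The other 7 genes were even between the libraries, with log2 ratios from -0.13 for Erbb3 and Egr2 to 0.15 for Mbp and Nrg1. None of the 8 was past 2-fold, against 3.18% of the 18318 genes that reached 10 counts in each library, 1.16% higher and 2.01% lower in replicate 2. Replicate 2 was the higher for 4 of the 8 and the lower for 4. Their median absolute log2 ratio was 0.13, and that of all tested genes was 0.12. Scaled to the spike-ins, the median of all genes moved to -0.65, 7 of the 8 genes were lower in replicate 2 and Fabp7 alone was higher, at 0.23. A change of scaling shifts the ratios of all genes by nearly the same amount. The distance of Fabp7 from that median, 0.88, was therefore fixed in advance and is no check of its ratio. Of the genes past 2-fold, 36.6% were higher in replicate 2 with TMM and 1.16% with spike-in scaling.

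**Figure D4:**
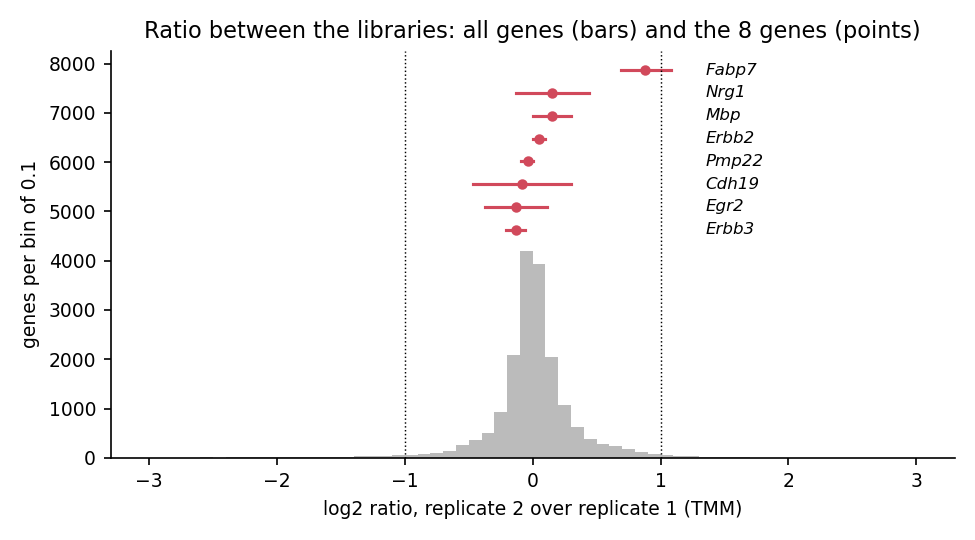
Histogram of the log2 ratio of replicate 2 over replicate 1 for the 18318 genes tested, in bins of 0.1, with values beyond 3 drawn in the end bins, and above it the 8 genes as points with 95% counting intervals, at heights chosen for reading alone. Fabp7 lies at 0.88 and the other 7 genes between -0.13 and 0.15, all inside the dotted lines at 2-fold.

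Markers of other cells were set beside Fabp7. Among markers of olfactory ensheathing glia, Npy had a log2 ratio of 0.01, Frzb 0.38, Ngfr -0.01 and S100b -0.15, and the summed level of the 5 listed genes was 71.7 TPM in replicate 1 and 73.1 TPM in replicate 2. Gpr37l1, also listed, was not detected, at 0.13 and 0.02 TPM. Ngfr and S100b are also among the listed precursor genes, and Ngfr held the largest part of both sums, at 38.58 and 38.34 TPM. The sums therefore do not separate ensheathing glia from the Schwann lineage. The 8 brain and radial glia markers summed to 82.7 and 71.5 TPM, with Nes at -0.41, Pax6 at 0.63 and Slc1a3 at 0.03. All 10 peripheral neuron markers had ratios above 0, from 0.01 for Stmn2 to 0.67 for Nefl, as did 9200 of all 18318 genes tested. They summed to 121 and 135 TPM, with Tubb3 at 36.2 ± 2.28 TPM and Stmn2 at 32.8 ± 0.205 TPM the highest. Of the 6 olfactory neuron markers, 5 were higher in replicate 2, with a median log2 ratio of 0.23. The part of the cells of any of these lists in the difference of Fabp7 was not tested. Sox10, at 0.07, was even between the libraries, and Fabp7 was 2.06 times Sox10 in replicate 1 and 3.61 times in replicate 2.

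Cdh19, the cadherin gene of Schwann cell precursors, was the lowest of the 8. It stood at 1.29 TPM in replicate 1 and 1.14 TPM in replicate 2 (1.21 ± 0.106 TPM), from 114 and 112 counts, just above the threshold of detection and at the percentile of 34.7 among coding genes. It lies on chromosome 1 from 110888326 to 110977584 on the minus strand, and Fabp7 on chromosome 10 from 57784881 to 57788450 on the plus strand (GRCm38). Sox10 was 7.02 and 8.33 times Cdh19. The coding transcript Cdh19-201 took 93.07% and 100% of the gene, and the noncoding Cdh19-202 took 6.93% in replicate 1 from 1.51 counts and 0 in replicate 2.

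Of the 13 listed genes of precursors and immature Schwann cells, 12 were detected, against 65.4% of all coding genes, with a median of 13.4 TPM. This list was chosen with earlier results of these data known, so the share cannot be read as a trait of it. The 3 most abundant, Cd9 at 297 ± 13.0 TPM, the adhesion gene Ncam1 at 94.3 ± 2.88 TPM and the growth cone gene Gap43 at 90.4 ± 4.05 TPM, are also expressed by other cells, Gap43 and Ncam1 by neurons. Ngfr, the neurotrophin receptor gene of neural crest and glia, stood at 38.5 ± 0.170 TPM, Gfra3, a receptor gene of glial precursors and of sensory neurons, at 7.47 ± 0.255 TPM, and S100b at 7.08 ± 0.516 TPM. Dhh, the hedgehog ligand gene that Schwann cells and their precursors express, stood at 2.65 and 1.87 TPM. Gfap, a filament gene of non-myelinating Schwann cells, was not detected, at 0.320 and 0.400 TPM.

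Egr2, the regulator of myelination, stood at 4.41 TPM in replicate 1 and 3.93 TPM in replicate 2 (4.17 ± 0.339 TPM), from 302 and 288 counts. It lies on chromosome 10 from 67535475 to 67542188 on the plus strand (GRCm38). The level was close to that of Pou3f1, the factor also called Oct6 that precedes Egr2 in Schwann cells, which stood at 3.70 ± 0.325 TPM, and Egr2 was 1.12 and 1.13 times Pou3f1. Nab1 and Nab2, whose products bind Egr proteins, were higher, at 20.8 ± 0.573 TPM and 25.4 ± 0.919 TPM. Osteoclast markers, listed because bone and blood cells also use Egr2, had 4 of 6 genes detected, against 65.4% of all coding genes. Ctsk at 104 ± 10.6 TPM and Mmp9 at 35.0 ± 1.98 TPM were the highest, and the part of osteoclasts in Egr2 was not tested.

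Egr2 transcripts came from the second group of 5′ ends, 2.39 kb downstream of the first, at 96.0% and 100%. Egr2-201 took 95.95% and 95.64% by the deposited percent, but 68.18% and 60.02% by the authors' posterior mean percent, which gave each of the 7 annotated transcripts a share above 0. No other Egr2 transcript passed 5% of the deposited percent in either library.

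Of the 14 listed regulators of the neural crest and Schwann lineage 13 were detected, against 65.4% of all coding genes, with a median of 15.0 TPM. They too were chosen with earlier results of these data known, so the share cannot be read as a trait of the list. Nfatc4 at 62.7 ± 2.74 TPM, Zeb2 at 57.0 ± 1.39 TPM and Tfap2b at 40.3 ± 1.48 TPM were the highest, and facial mesenchyme is known to express Zeb2 and Tfap2b. Sox2, a factor of immature Schwann cells and of epithelia, stood at 5.04 ± 0.778 TPM and Foxd3, a neural crest factor, at 1.39 ± 0.0495 TPM. Pou3f2, at 0.0800 and 0.230 TPM, was the only one of the 65 pathway genes with enough counts for a ratio that was past 2-fold, with a log2 ratio of 1.38 from 11 and 33 counts. Of all tested genes, 1.16% were past 2-fold and higher in replicate 2.

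**Figure D5:**
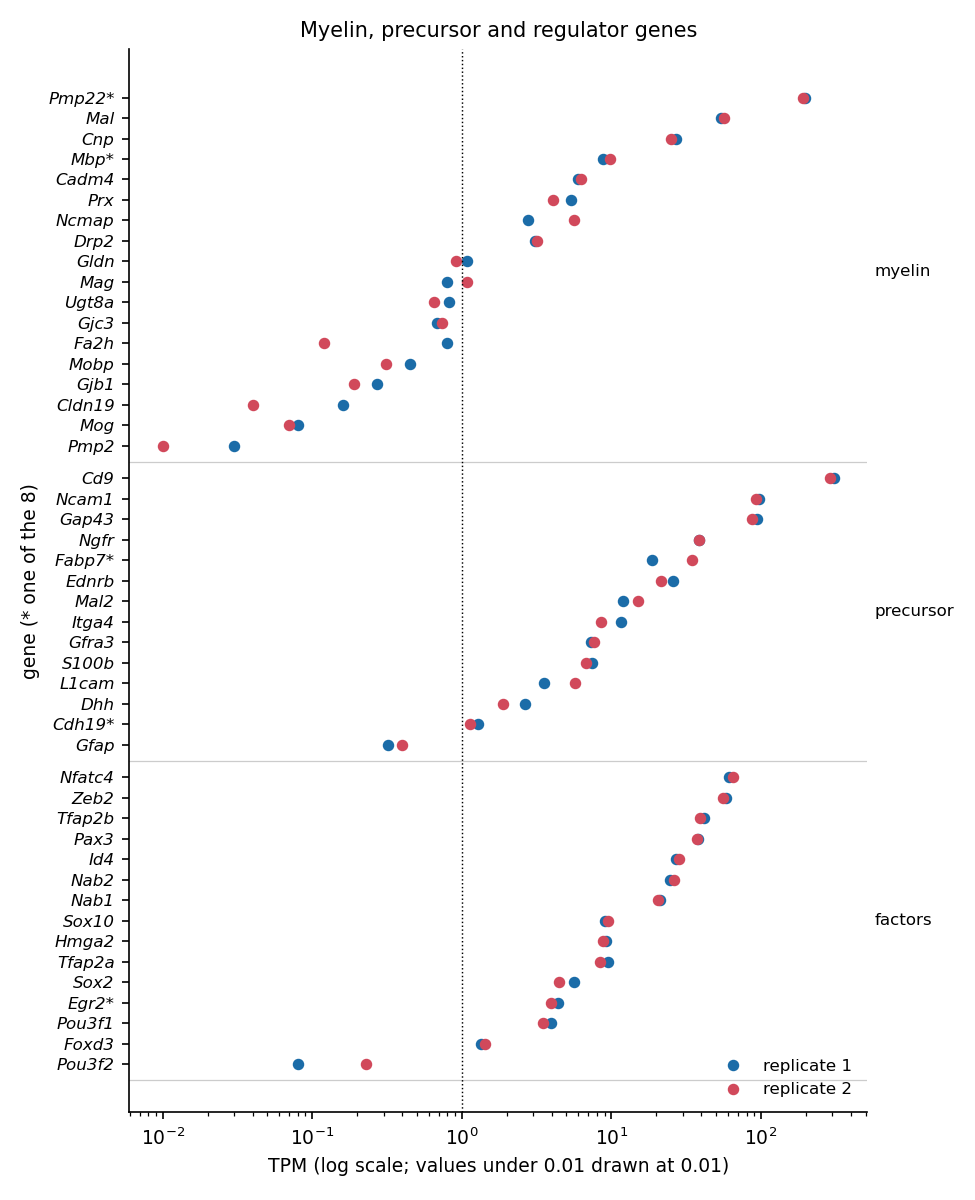
Level in TPM on a log scale of the genes listed for myelin, for precursors and immature glia, and for transcription factors, with 1 point per library, a dotted line at 1 TPM and an asterisk on the genes of the 8. Pmp22 leads the myelin genes at 194 TPM and Mbp stands at 9.31 TPM, while Gjb1, Cldn19, Mog and Pmp2 lie below 1 TPM.

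Sharing of reads with other genes was checked for all 8. No transcript of another gene matched one of theirs at 90% identity or more over 100 bases or more, among transcripts present in both the table and GENCODE M21. An annotated gene shared exon bases with one of them in 1 case, where Mien1 on the opposite strand shared 9 bases with Erbb2.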

How the data were processed

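Total RNA over 200 nucleotides long, 10 ng per library, was extracted with a mirVana kit, and spike-in RNA was added, per the labels' protocols. The labels also link a manual of a SMARTer kit, which leaves the library preparation unclear. The labels name mm10, and annotation M4 is named in the deposited text. For the read aligner, the quantifier and whether strand was used, the entry is "not given in the sources used here". Per the file headers, the authors deposited expected counts, TPM, FPKM, each transcript's percent within its gene, and bounds of TPM, recorded here as a score.

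Symbols came from GENCODE M21 (GRCm38), with 42462 of 43346 identifiers matched. Transcripts were grouped where neighbouring 5′ ends in M21 lay within 1000 bases, and some counted models differ in length from those of M21. Ratios used rounded expected counts, TMM factors of 0.989 and 1.01 and a prior count of 2 in edgeR 4.0.16 (R 4.3.3). The ratio step was tested on simulated data. DESeq2 1.42.0 gave other size factors. Other steps used Python 3.11.15, pandas 2.3.3, scipy 1.17.1, matplotlib 3.10.9 and blastn 2.17.0. Promoters came from RefSeq, which held 4 of the 8 genes.

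The 8 genes and the lists were chosen with earlier results of these data known. Named genes were all 8 with their transcripts at 5% or more, the 3 highest of each pathway list, with any other detected pathway gene allowed, and the 2 highest and any at 0 of each marker list. Genes under 1 TPM and the other markers were named after their values were seen. Some listed genes are not reported here and were left out of the lists' counts and medians.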

Additional observations from a re-analysis of the deposited data

How the results depend on the processing

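None of the 8 genes passed 2-fold between the libraries under any of the 6 alternatives to the ratio (DESeq2 size factors, total counts, spike-ins, another prior count, posterior mean counts and no filter on counts). The number of all genes past 2-fold fell from 582 to 284 with a filter of 100 counts, which tests fewer genes, and rose to 1557 with spike-in scaling. With the latter 1.16% of the calls were higher in replicate 2, against 36.6% with TMM. The median level of the 8 genes, 14.5 TPM, was 15.9 TPM when rescaled over mouse genes alone and 9.67 as FPKM, and ran from 13.7 to 14.3 TPM when a replicate was left out. At 5 TPM or more, 5 of the 8 genes were detected, and the share of all coding genes at that threshold was not computed. By expected counts, which weigh long transcripts more, the upstream starts of Mbp took 83.0% and the downstream starts 16.7%. By TPM with Mbp-205 left out, the upstream starts took a mean of 40.6% and the downstream starts 55.8%, and the order of the 2 groups differed between the libraries. The main 5′ end of Pmp22 took 94.4% by the posterior mean percent and 97.3% by expected counts. Leaving out a replicate gave 66.1 to 74.0% for the upstream and 24.4 to 31.9% for the downstream starts of Mbp, and 94.5 to 95.2% for Pmp22. Leaving out replicate 1 put Nrg1 above Egr2, and leaving out replicate 2 put Erbb3 above Fabp7. A ratio between replicates cannot be formed without one of them. Depth limits Cdh19 and Nrg1 most, since their counting intervals reached from -0.47 to 0.30 and from -0.13 to 0.44 in log2. No paired analysis was possible because the labels give a single group.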

Other observations

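The ratios of replicate 2 over replicate 1 of single genes outside the 8 are given here as values, for genes chosen after their values were seen. The progenitor factor gene Olig2 stood at 1.13 TPM in replicate 1 and 2.60 TPM in replicate 2, with a log2 ratio of 1.18 (0.78 to 1.64, counting error only), and was past 2-fold, as were 1.16% of all genes tested in that direction. The ratios of Olig1, Ncmap, L1cam, Nefl and Nefm were under 2-fold. Olig1 stood at 4.04 ± 1.45 TPM, with 0.74, Ncmap at 2.78 and 5.58 TPM, with 0.78 (0.45 to 1.15), and the axonal adhesion gene L1cam at 3.53 and 5.70 TPM, with 0.51. The neurofilament genes Nefl and Nefm had ratios of 0.67 and 0.60. Glial and neural crest genes with ratios nearer 0 or below it were Sox10 at 0.07, Ednrb at -0.25, Sox2 at -0.31, Itga4 at -0.41, Prx at -0.44 and Dhh at -0.49. The fatty acid hydroxylase gene Fa2h had 46 counts in replicate 1 and 6 in replicate 2. Markers of skeletal muscle were lower in replicate 2 for 8 of 8 genes, with a median log2 ratio of -0.41, and those of red blood cells for 6 of 6, with -0.40. Of all 18318 genes tested, 9118 were lower in replicate 2. Melanocyte markers were lower for 6 of 7 (median -0.27), osteoclast markers for 5 of 6 (-0.23) and epithelial markers for 4 of 8 (-0.01). The globin genes Hba-a2 (10596 ± 1969 TPM) and Hbb-bs (5271 ± 1137 TPM) were the highest of the red blood cell markers. The 6 olfactory neuron markers were all detected, against 65.4% of all coding genes, and Ebf2 at 15.7 ± 2.17 TPM and Adcy3 at 13.5 ± 0.290 TPM were the highest.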
